A study of Mus musculus with 2 samples.

Results

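The genes for 9 subunits of the Polycomb repressive complexes, Ezh1, Ezh2, Eed, Suz12, Bmi1, Ring1, Rnf2, Cbx2 and Cbx8, were examined for R-loop peaks in mouse neural stem/progenitor cells (NSPCs). They were taken by symbol from the GENCODE M1 annotation of the mm9 genome, as 9 of its 22367 protein-coding genes. Each peak that overlapped 1 of these genes or lay within 2 kb of it was assigned to that gene, which gave 8 of the 22132 peaks in the list. The cells were primary NSPCs grown from the frontal brain of C57BL/6 mice at postnatal day 7, and the study's methods, but not the sample labels, place them under mild replication stress from aphidicolin, an inhibitor of replicative DNA polymerases. The S9.6 antibody, which binds RNA:DNA hybrids, was used to pull down genomic DNA that had been cut with EcoRI, HindIII, BsrGI, SspI and XbaI (DRIP-seq). All cells belonged to this single group, with no untreated or knockout group, and the matching input library, prepared without antibody, was not analysed here. The list gives only where each peak starts and ends, with no read count, score or separate replicates, so the values below have no replicate error, their depth is unknown, and no difference was tested. Of 10 genes known as markers of neural stem and progenitor cells, 7 had a peak within 2 kb, and Fabp7, Pax6 and Prom1 had none. Of 10 markers of other cell types, which included neurons and oligodendrocytes, 1 had a peak, the oligodendrocyte gene Mbp. The same condition held for 43.1% of all protein-coding genes, and both lists were picked by hand. A peak is not a measure of expression.

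An R-loop forms when nascent RNA pairs with the template DNA strand behind RNA polymerase and leaves the other strand unpaired. Clusters of G on the non-template strand, which has the same sequence as the RNA, are known to favour such hybrids. Polycomb proteins keep developmental genes silent through 2 complexes. PRC2 methylates histone H3 at lysine 27 through its catalytic subunit Ezh2 or Ezh1, with Suz12 as the scaffold and Eed as the subunit that binds the finished mark and stimulates the enzyme. PRC1 ubiquitinates histone H2A through Ring1 or Rnf2 paired with a Pcgf protein such as Bmi1, and chromodomain proteins such as Cbx2 and Cbx8 bring it to methylated H3. In the brain, Bmi1 is known for the self-renewal of neural stem cells and Ezh2 for the timing of progenitor differentiation.

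To show the kind of DNA that these peaks contained, the window of 60 bp in which G most outnumbered C on the coding strand was taken from the peak at the gene start or, where there was none, from the widest peak of the gene, with untranslated regions left out. The 6 largest excesses are given 5′ to 3′ from the mm9 genome, and capitals mark runs of 3 or more G.
Eed, chr7:97127454-97127513, minus strand, first intron: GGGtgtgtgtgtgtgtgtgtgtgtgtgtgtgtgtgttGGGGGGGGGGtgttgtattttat
Ring1, chr17:34159520-34159579, minus strand, coding exon: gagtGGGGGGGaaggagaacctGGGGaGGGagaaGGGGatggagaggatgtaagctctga
Suz12, chr11:79806843-79806902, plus strand, coding part of the first exon: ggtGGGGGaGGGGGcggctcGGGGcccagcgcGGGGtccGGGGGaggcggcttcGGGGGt
Ezh2, chr6:47544678-47544737, minus strand, intron near the gene start: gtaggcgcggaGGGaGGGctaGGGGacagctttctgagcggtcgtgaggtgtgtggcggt
Bmi1, chr2:18599584-18599643, plus strand, first intron: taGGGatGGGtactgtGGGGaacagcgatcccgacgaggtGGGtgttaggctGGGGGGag
Cbx2, chr11:118889773-118889832, plus strand, coding exon: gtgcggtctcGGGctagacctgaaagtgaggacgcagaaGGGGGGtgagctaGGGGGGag
The Eed stretch held 31 G and 0 C and combined a repeat of TG with a run of G, and it began 1980 bp after the gene start. The Ring1 stretch had 32 G and 4 C, and the Suz12 stretch had 38 G and 13 C in 6 runs of G. The Ezh2 and Bmi1 stretches each had an excess of 22, and the Cbx2 stretch had 30 G and 9 C. The corresponding stretch of the Ezh1 peak, with 23 G and 9 C, had the smallest excess of the 7 genes that had a peak. Because the window was chosen for its excess of G, these counts describe the sequences and are no evidence that the peaks are rich in G.

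Most of the genes carried a peak, and most carried only 1. A peak lay within 2 kb of 7 of the 9 genes, and the same condition was met by 43.1% of all protein-coding genes. All 7 were overlapped by their peaks, so none depended on the flank, whereas 39.6% of protein-coding genes were overlapped. Ezh2 had 2 peaks, 6 genes had 1, and Rnf2 and Cbx8 had none. Long genes have more room for a peak, and the 9 genes had a median length of 26.3 kb compared with 15.4 kb for all protein-coding genes. Of the 13655 protein-coding genes no shorter than Ring1 and no longer than Ezh2, 47.1% had a peak within 2 kb. These genes were not matched in length to the 9 within that range, and the part of length in the count was not tested. The peaks covered 15.5 kb of the 226 kb that the 9 genes span together, or 6.86%, and for all protein-coding genes the share was 3.73%. Much of this came from 2 short genes, with 4207 bp in Cbx2 and 2642 bp in Ring1, or 50.6% and 67.9% of each. Coverage was 12.7% in Bmi1, 8.49% in Eed, 4.65% in Ezh1, 4.13% in Ezh2, 2.06% in Suz12 and 0% in Rnf2 and Cbx8.

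The map of peaks along each gene shows where the peaks lay. The gene start, taken as the outermost 5′ limit in the annotation, lay inside a peak in Ezh2, Eed and Suz12, which are 3 of the 4 PRC2 genes, and in none of the 5 PRC1 genes. With any annotated transcript start, or with a peak allowed within 1 kb of the start, Bmi1 joined them, and within 2 kb Ring1 did as well. Whether the complexes differ in this respect was not tested. Over all protein-coding genes, 14.9% of starts lay in a peak. The gene end lay inside a peak in Ring1 alone, and 10.9% of protein-coding genes had their end in a peak. In Ezh1, Bmi1 and Cbx2 the peak held neither limit. Of all 9636 protein-coding genes with a peak within 2 kb, 24.6% had only the start in a peak, 15.5% only the end, 9.94% both and 50.0% neither. The counts of 3, 1, 0 and 3 for the Polycomb genes are too small to be set apart from these shares without a test, and none was made.

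**Figure D1:**
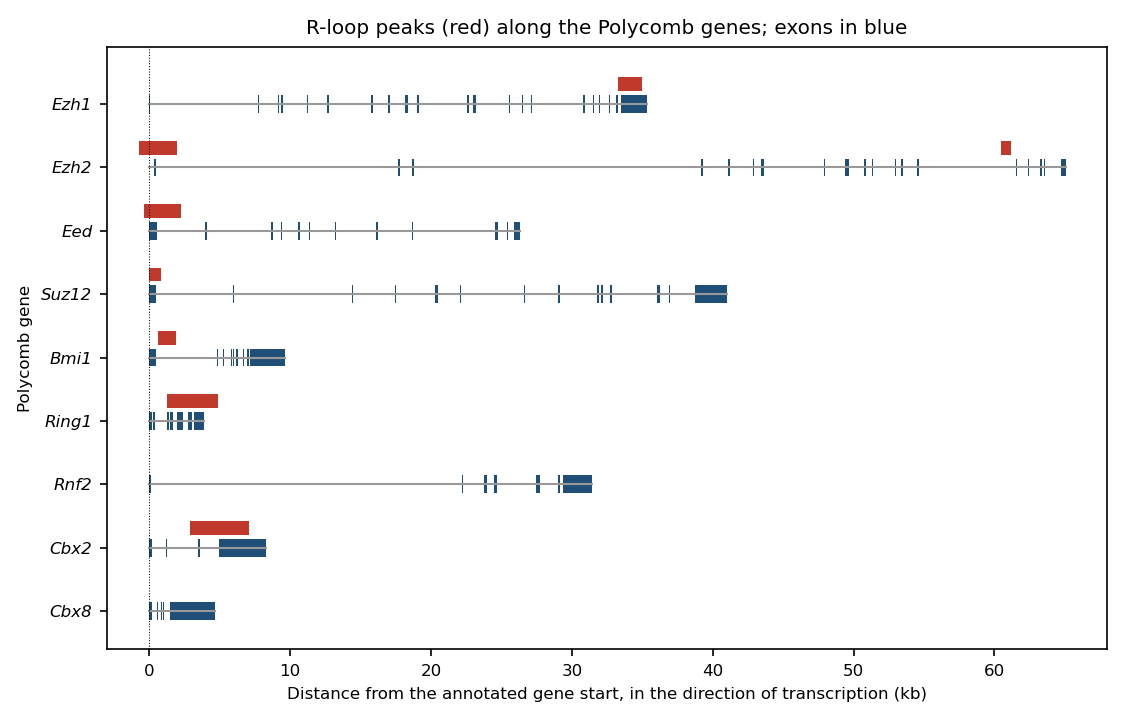
R-loop peaks (red bars) and exons of the longest transcript (blue) of the 9 Polycomb genes, drawn by distance from the gene start in kb in the direction of transcription. Peaks cover the start of Ezh2, Eed and Suz12, lie in the later part of Ezh1, Ring1 and Cbx2 and in the first intron of Bmi1, and are missing from Rnf2 and Cbx8.

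Ezh2 (ENSMUSG00000029687), the main H3 lysine 27 methyltransferase of dividing cells, runs on chromosome 6, minus strand, between 47480273 and 47545340 and is the longest of the genes at 65.1 kb. Its first peak, from 47543364 to 47546056, was 2.69 kb wide and reached from 716 bp upstream to 1976 bp downstream of the gene start. The start peak contained exon 1 of the longest transcript and the start of 5 of the 13 annotated transcripts. Intron sequence made up 1682 bp of it, untranslated exon 295 bp, and DNA upstream of the gene 716 bp. The other Ezh2 peak, from 47484170 to 47484878, lay 60462 to 61170 bp from the start in intron 14 of the longest transcript. It was 0.709 kb wide, with 29.6% of all peaks narrower, and the annotation places exons of other Ezh2 transcripts over all 709 bp. The inner peak had a GC content of 47.4%, close to the median of 48.7% over all peaks, whereas the start peak had 55.3%. Together they covered 4.13% of Ezh2.

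Eed (ENSMUSG00000030619), the reader subunit of PRC2, occupies positions 97103166 to 97129493 of chromosome 7, minus strand. It had a single peak of 2.61 kb, from 97127260 to 97129871, which began 378 bp upstream of the gene start and ended 2233 bp inside the gene. This peak held the starts of both annotated transcripts, the whole first exon and 1662 bp of intron, with 458 bp of untranslated and 114 bp of coding exon. It covered 8.49% of the gene. Eed stood in a stretch with few peaks, since the nearest peak on one side was 844 kb away and on the other 148 kb, and it was the only peak within 100 kb of the Eed start.

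Suz12 (ENSMUSG00000017548), the scaffold of PRC2, is transcribed from the plus strand of chromosome 11, where it spans 79806608 to 79847625. Its peak was 0.846 kb wide, from 79806608 to 79807453, so that its first base was also the first annotated base of the gene. The peak ended in the first intron, 845 bp from the start, and comprised 214 bp of untranslated exon, 280 bp of coding exon and 352 bp of intron. Its GC content of 68.4% was the highest of the 8 peaks and exceeded that of 99.2% of all peaks in the list. The peak was a small part of a gene of 41.0 kb, with 2.06% of Suz12 covered.

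Ezh1 (ENSMUSG00000006920), the methyltransferase that can replace Ezh2 and is known to be more prominent in cells that no longer divide, runs on chromosome 11, minus strand, between 101052429 and 101087777. Among the PRC2 genes of this set of 9, it alone had no peak at its start. Its only peak, from 101052824 to 101054468, was 1.65 kb wide, lay 33309 to 34953 bp downstream of the start and ended before the gene end. It fell in exon 21 of 21 and the end of the preceding intron, with 1432 bp of untranslated sequence, 58 bp of coding sequence and 155 bp of intron. The peak did not overlap Cntnap1, a neighbour looked up after the peaks were seen, whose end faces that of Ezh1 at a distance of 391 bp. The Ezh1 start was in a neighbourhood rich in peaks, with 10 within 100 kb compared with a median of 3 over protein-coding genes.

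Bmi1 (ENSMUSG00000026739), the Pcgf subunit that stimulates the ubiquitin ligase of PRC1, occupies positions 18598645 to 18608256 of chromosome 2, plus strand. The Bmi1 peak, from 18599294 to 18600518, was 1.23 kb wide and lay 649 to 1873 bp downstream of the gene start. Of its bases, 1200 bp belonged to the first intron and 25 bp to untranslated exon. The start of 1 of the 7 annotated transcripts, Bmi1-002, lay inside it, although the outermost start did not. The peak covered 12.7% of Bmi1, and the nearest other peaks were 460 kb upstream and 87.7 kb downstream.

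Ring1 (ENSMUSG00000024325) encodes 1 of the 2 alternative ubiquitin ligases of PRC1 and is the shortest of the genes, with 3.89 kb on chromosome 17, minus strand, between 34157737 and 34161625. Its peak, from 34156756 to 34160378, was 3.62 kb wide, began 1247 bp downstream of the start and continued 981 bp past the gene end. It reached from within exon 3 past the end of exon 7, the last, and covered 67.9% of the gene, the highest share of the 9. Coding sequence made up 1120 bp, untranslated sequence 593 bp, other exon sequence 632 bp and intron 297 bp.

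Rnf2 (ENSMUSG00000026484), which encodes the other ubiquitin ligase, spans 153316536 to 153347953 of chromosome 1, minus strand. It had no peak, and the nearest, 712 bp wide, lay 21.2 kb from its 3′ limit. Among the genes for the catalytic core of PRC1, Ring1 was therefore mostly covered by a peak and Rnf2 not at all. The list does not show how far the signal over Rnf2 fell below the threshold of the peak calling.

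Cbx2 (ENSMUSG00000025577) and Cbx8 (ENSMUSG00000025578), which encode chromodomain proteins that bind methylated H3, are neighbours on chromosome 11. Cbx2 lies on the plus strand from 118884276 to 118892584 and Cbx8 on the minus strand from 118897619 to 118902283, so their ends face each other across 5.04 kb. The Cbx2 peak, from 118887128 to 118891334, was the widest of the 8 at 4.21 kb. It lay 2852 to 7058 bp from the Cbx2 start, contained exon 4 and most of exon 5, and held 1375 bp of coding sequence, 853 bp of untranslated sequence and 1979 bp of intron. It covered 50.6% of Cbx2 and ended 6.29 kb before the Cbx8 gene, which had no peak of its own.

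The 8 peaks had a median width of 2.13 kb, compared with 1.32 kb for the whole list. The range was from 0.709 kb in Ezh2 to 4.21 kb in Cbx2, and 6 of the 8 peaks were at least 1 kb wide, as were 58.7% of all peaks. Median GC content was 54.0%, compared with 48.7% over all peaks. CpG dinucleotides, written as observed over expected from base composition, had a median of 0.541 in these peaks and of 0.213 in all peaks. The ratio was 0.908 in the Ezh2 start peak, 0.853 in Suz12, 0.822 in Eed and 0.750 in Bmi1, the peaks that began upstream of the gene start or less than 1 kb after it. It was 0.333 in Ring1, 0.309 in Cbx2, 0.141 in Ezh1 and 0.126 in the inner Ezh2 peak. No peak overlapped a gene other than the one it was assigned to.

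GC skew, (G − C)/(G + C) on the coding strand, was positive in 7 of the 8 peaks, which means that the strand equal to the RNA held more G than C. The share of positive values over the peaks of other genes was not computed, so this count has no background to be read against. It was highest in Eed at 0.169, followed by Suz12 at 0.133 and Bmi1 at 0.0962. The Ezh2 start peak had 0.0678, Ezh1 0.0611, the inner Ezh2 peak 0.0357 and Ring1 0.0140, whereas Cbx2 had −0.00883. Regardless of sign, the median skew over all peaks was 0.0860, which was exceeded by the Eed, Suz12 and Bmi1 peaks and by none of the others. The Ring1 and Cbx2 peaks, the widest, thus had nearly as much C as G. The letters GGGG, counted on the coding strand with overlaps allowed, occurred 47 times in the Ring1 peak and CCCC 48 times. In the Eed peak GGGG occurred 34 times and CCCC 13 times, and in the Suz12 peak 30 and 9 times.

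The DNA was cut with 5 enzymes before the pull-down and, per the study's methods, sonicated only after it. An R-loop can therefore be located no better than the fragment that carried it. Of the 16 edges of the 8 peaks, 9 lay within 100 bp of a cutting site, and over all peak edges the share was 28.3%. The Cbx2 peak lay between neighbouring sites 4.34 kb apart and filled 96.9% of that span. The Ezh1 and Suz12 peaks, likewise without a site inside, filled 83.2% and 74.5% of theirs. The inner Ezh2 peak, which also held no site, filled 68.4% and had its edges 189 and 140 bp from the nearest sites. The Eed peak ended 6 bp from a site on its upstream side and the Ezh2 start peak 9 bp from a site on its downstream side. In Bmi1 the fragment that carries the gene start measured 2.98 kb, and the peak covered 39.1% of it. The Ezh2 start fragment was covered to 96.9%, the Eed start fragment entirely and the Suz12 start fragment to 74.5%. How much the cutting sites set the limits of these peaks was not tested.

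**Figure D2:**
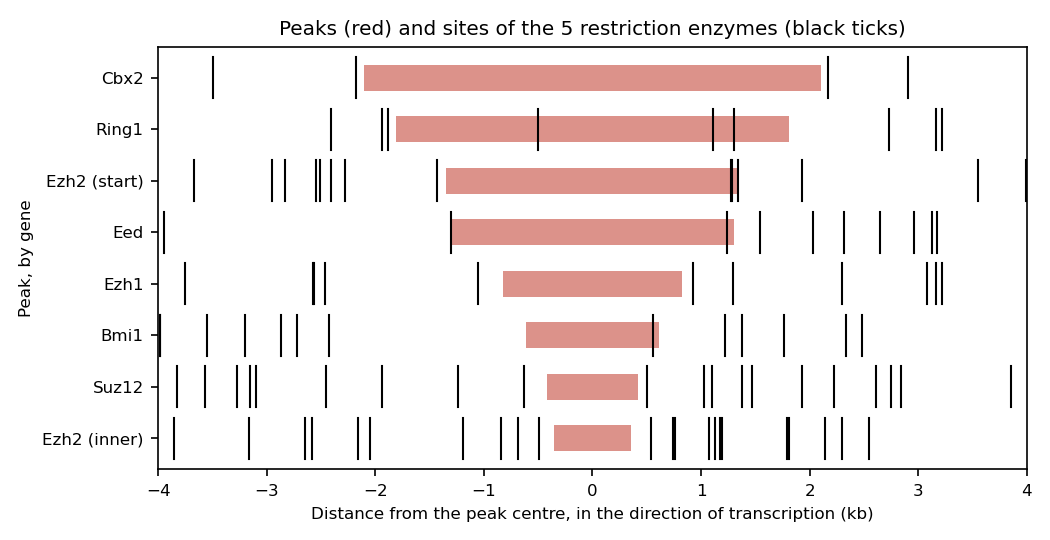
The 8 peaks (red) and the cutting sites of the 5 enzymes (black ticks) by distance from the peak centre in kb, in the direction of transcription, ordered by width. The Cbx2 peak fills nearly the whole span between neighbouring sites, whereas the Ring1 peak, 3.62 kb wide, contains 3 sites.

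The starts of the 9 genes were all richer in GC and CpG than the median protein-coding gene. In the 1 kb around the start, GC content ran from 60.4% in Ezh1 through 61.7% in Eed, 63.5% in Ezh2, 66.6% in Cbx2, 67.8% in Cbx8, 70.9% in Suz12, 71.3% in Ring1 and 73.2% in Rnf2 to 73.7% in Bmi1. The median of the 9 was 67.8%, and that of all protein-coding genes was 54.8%. CpG observed over expected lay between 0.670 in Cbx8 and 0.986 in Bmi1 for 8 of the genes and was higher still in Cbx2, with a median of 0.903 compared with 0.549. Among these 9 genes, Rnf2 had a higher GC content at the start than each of the 3 genes whose start lay in a peak. A relation of GC content to the peaks was not tested, and the shares over all protein-coding genes are given below.

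GC skew in the first 1 kb gave another order of the genes. It was 0.238 in Eed, 0.210 in Ezh1, 0.159 in Ezh2 and 0.124 in Suz12, so the 4 PRC2 genes had the 4 highest values. The PRC1 genes followed with 0.0991 in Rnf2, 0.0496 in Bmi1, 0.0225 in Cbx8, −0.0330 in Ring1 and −0.0741 in Cbx2, and the median of all protein-coding genes was 0.0390. The 3 genes with a peak at the start were among these 4, and Ezh1, with a skew above that of 96.0% of protein-coding genes, had its nearest downstream peak 33309 bp from its start. Over the first 2 kb, Cbx2 changed sign to 0.0243 and the 4 PRC2 genes remained the highest. Over all protein-coding genes, 10.5% of the 7694 starts with a skew below 0 lay in a peak, compared with 15.0% between 0 and 0.1, 870 of 4587 starts between 0.1 and 0.2, and 27.3% of the 1089 starts at 0.2 or more. For GC content the share ran from 1.57% below 50% to 40.4% at 70% or more. These limits were chosen after the values were seen, and the shares are given as a description.

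**Figure D3:**
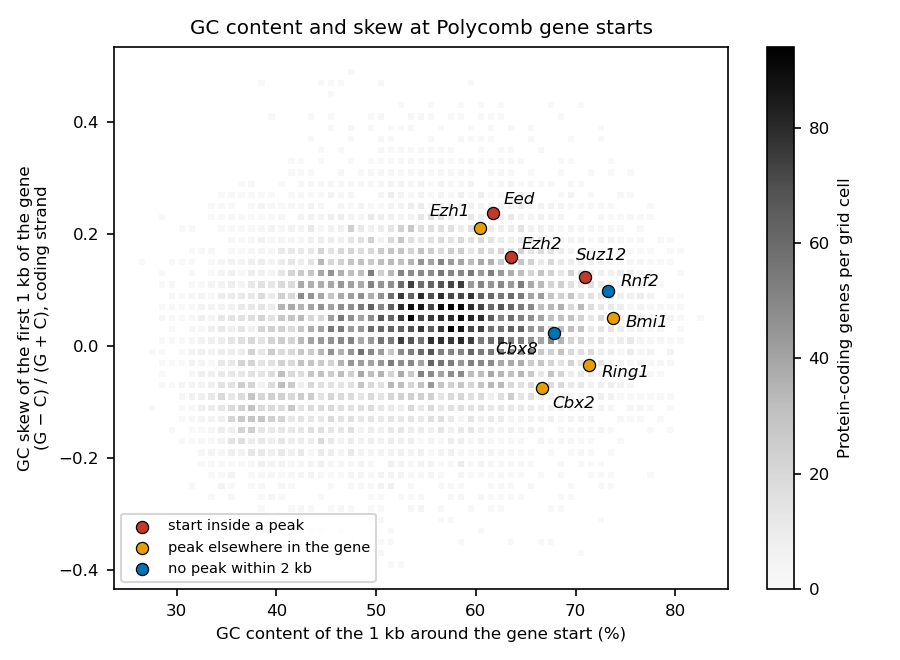
GC content of the 1 kb around the gene start (%, x axis) and GC skew of the first 1 kb of the gene on the coding strand (y axis) for the 9 Polycomb genes, over the number of protein-coding genes per grid cell (grey). Genes with a start in a peak (red) lie at a skew of 0.124 to 0.238. Of the genes with a peak elsewhere (orange), Ezh1 lies in that range, and Bmi1, Ring1 and Cbx2 lie at 0.0496, −0.0330 and −0.0741. Rnf2 and Cbx8 (blue, no peak within 2 kb) lie at 0.0991 and 0.0225.

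The letters GGGG occurred 31 times in the first 1 kb of Suz12, and 1.04% of protein-coding genes had as many or more. Ezh2 had 22, Rnf2 21, Eed 20, Bmi1 19, Ezh1 18, Cbx8 15, Cbx2 11 and Ring1 10, and the median of all protein-coding genes was 6. The opposite letters, CCCC, were found 1 time in Ezh1, and Ezh2 had 2, Eed 5, Suz12 9, Rnf2 10, Cbx8 10, Ring1 15, Bmi1 16 and Cbx2 24. The counts of GGGG in Rnf2 and Cbx8, the genes without a peak, were thus above the median of 6. The 60 bp with the largest excess of G in their first 1 kb, found in the same way and shown because neither gene had a peak, read as follows. This pair was chosen after the values were seen.
Rnf2, chr1:153347698-153347757, minus strand, first intron: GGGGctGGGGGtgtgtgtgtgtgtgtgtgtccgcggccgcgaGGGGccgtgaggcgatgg
Cbx8, chr11:118901850-118901909, minus strand, intron: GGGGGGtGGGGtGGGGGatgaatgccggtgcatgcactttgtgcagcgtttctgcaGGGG
The Rnf2 stretch had 34 G and 10 C, an excess of 24, and the Cbx8 stretch had 30 G and 9 C, an excess of 21. By comparison, in the first 1 kb of the genes with a peak at the start the largest excess was 25 in Suz12, 22 in Ezh2 and 22 in Eed. In the genes with a peak elsewhere it was 31 in Bmi1, 23 in Ezh1, 16 in Ring1 and 9 in Cbx2. Each window was chosen for its excess of G, so these values are a description, and a relation to the peaks was not tested.

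For the other parts of the pathway, 29 further Polycomb genes were examined. A peak lay within 2 kb of 25 of them, and 10 starts and 5 ends lay inside a peak, beside the 43.1%, 14.9% and 10.9% over all protein-coding genes. Their median length was 52.7 kb, which is longer than that of the 9 genes. All 7 further genes for subunits or cofactors of PRC2, Rbbp4 and Rbbp7 among them, had a peak. In 4 of the 7, again with Rbbp4 and Rbbp7 among them, the start lay in a peak. Of the 5 other Pcgf genes, 3 had a peak and 2 a start in a peak. The genes for polyhomeotic and Scm proteins, which help PRC1 to multimerise, had a peak in 4 of 5 cases, and those for subunits of variant PRC1 also in 4 of 5, in both groups with 0 starts in a peak. The 3 genes of the deubiquitinase that opposes PRC1 all had a peak, 2 of them at the start, and both genes for H3 lysine 27 demethylases had a peak, 1 of them at the start. The further PRC1 chromodomain genes Cbx6 and Cbx7 both had a peak, which held the start of Cbx6 and the end of Cbx7.

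The most peaks were found in Aebp2, a PRC2 cofactor, and Phc2, a polyhomeotic protein, with 8 each, which covered 30.8% and 16.9% of the gene. Pcgf3 and Bcor, both of variant PRC1, had 4 each. The 4 genes without a peak were Pcgf1, Pcgf5, Scml2 and L3mbtl2, and their nearest peaks lay 24.0, 177, 979 and 13.4 kb away. Near-complete coverage was seen in Cbx6 with 94.5% and the demethylase gene Kdm6b with 94.3%, which were picked out after their values were seen. Among the 4 Cbx genes examined, coverage thus ran from 0% in Cbx8 and 4.31% in Cbx7 through 50.6% in Cbx2 to 94.5% in Cbx6.

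**Figure D4:**
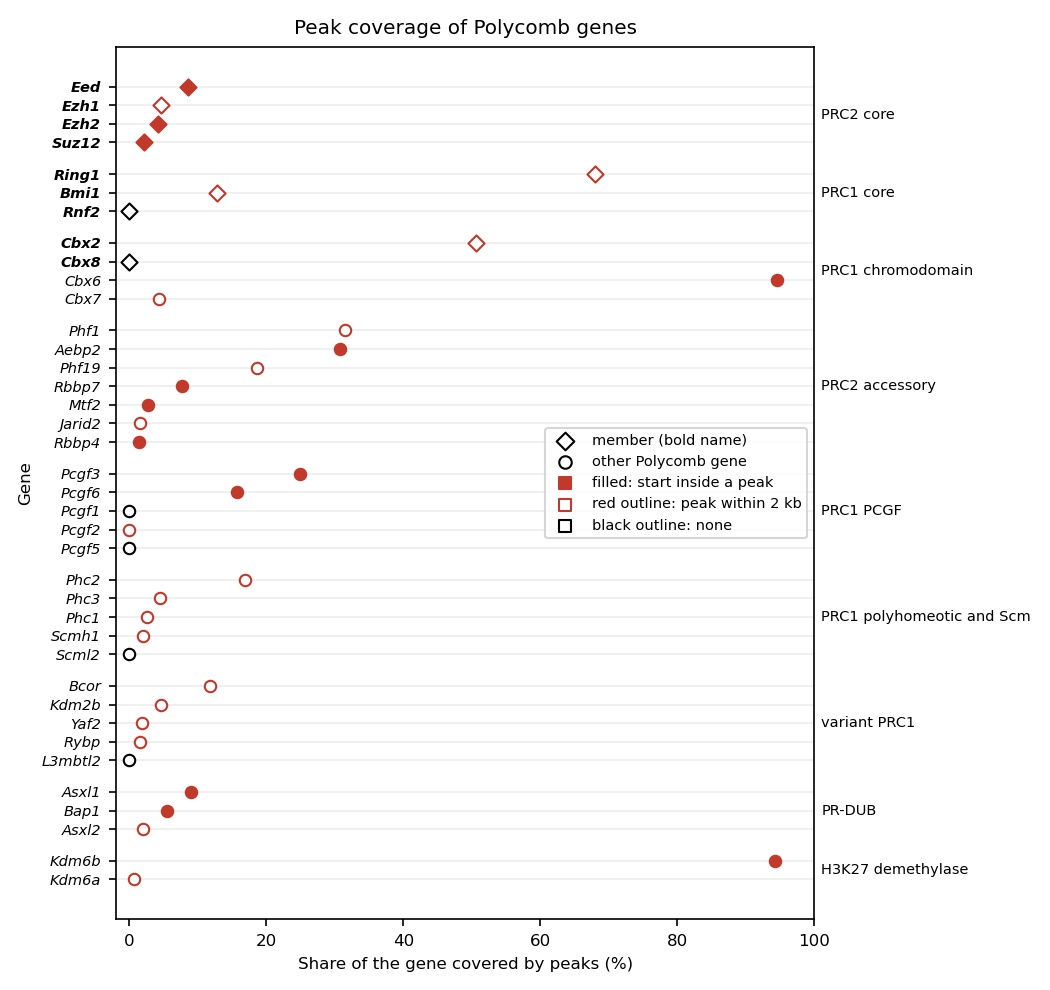
Share of each gene covered by peaks (%, x axis) for the 9 Polycomb genes (diamonds) and 29 further Polycomb genes (circles), grouped by role. The group labelled PRC2 accessory includes Rbbp4 and Rbbp7. Filled symbols mark genes whose start lies in a peak, red outlines a peak within 2 kb and black outlines none, and coverage runs from 0% in Rnf2 and Cbx8 to 94.5% in Cbx6.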

How the data were processed

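DRIP-seq libraries were made from primary NSPCs, and per the labels 3 DRIP reactions of each biological replicate were pooled into a library. The authors trimmed the reads (Trim Galore 0.6.6 per the submitters' processing notes), aligned them to NCBI37/mm9 (aligner not given in the sources used here) and, after removal of duplicates, found peaks by a Hidden Markov Model. The deposited list gives each peak as a start and an end position in base pairs. How replicates were combined into it is not stated, and depth is unknown. Starts, counted from 0 in the list, are printed counted from 1.

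Peaks were compared with GENCODE M1 genes and mm9 sequence in Python 3.11.15 (numpy 2.4.6, scipy 1.17.1, matplotlib 3.10.9), counting overlaps of at least 1 bp. Gene limits were the union of all transcripts. Every protein-coding gene was treated in the same way. The search for peaks at gene starts and within the flank was tested on simulated peaks. Coverage, exon classes, cutting sites and sequence windows were not tested in this way. The genes and lists were chosen with earlier results of these data known. All 9 genes are named, with the Polycomb genes that had no peak, the 3 with the most peaks, including ties, and sequences of up to 6 genes. Alternatives were other peak sizes, merging of peaks closer than 1 kb, other flanks, gene limits, overlaps, starts and background genes, and the first 2 kb for skew. A result that is withheld is not reported here.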

Additional observations from a re-analysis of the deposited data

How the results depend on the processing

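No paired analysis was possible because there is a single peak list with no replicates. Of 48 alternatives for the counts and shares over several genes, 38 stayed within the limits set for a change, and of 72 for single genes, 67 did. The limits were a 1.5-fold change for a count and the 95% binomial interval of the main value for a share or skew. This interval counts each base or gene as independent, and it does not measure error between replicates. The limits are wide for small counts, since 3 starts falling to 2 stayed within them. Merging peaks closer than 1 kb could not alter the values of the 9 genes, as the smallest gap beside their peaks was 5.98 kb. With peaks of at least 1 kb, Suz12 had 0 peaks and Ezh2 1, so 6 of the 9 genes and 2 starts remained, coverage of the 9 genes was 6.17%, and 34.6% of protein-coding genes had a peak within 2 kb. With the limits of the longest protein-coding transcript, coverage was 6.73%. The share of protein-coding genes was 39.6% with a flank of 0 kb, 46.7% with 5 kb, 51.3% with 10 kb, 40.6% by peak midpoint, 30.8% for all annotated genes and 44.2% for autosomal genes. A flank of 10 kb added the Cbx2 peak to Cbx8 and gave Ezh1 2 peaks, so that 8 of the 9 genes had a peak. Counting a peak within 2 kb of the start, chosen after seeing the data, gave 5 genes in place of 3, beside 22.2% of protein-coding genes, and within 1 kb 4 genes beside 19.4%. The skew of Cbx2 reversed from −0.0741 to 0.0243 over the first 2 kb. The cause of these changes was not tested beyond what each setting removes or adds. A gene without a peak may still carry signal below the threshold of the peak calling, since no depth or signal is given.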

Other observations

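The genes for DNA methylation, another repressive system, and for its Tet antagonists were counted beside the Polycomb genes. A peak lay within 2 kb of 5 of these 7 genes, and 3 starts lay in a peak, beside 43.1% and 14.9% of protein-coding genes. These genes are long, with a median length of 79.3 kb compared with 15.4 kb for all protein-coding genes. Dnmt3a, a de novo DNA methyltransferase, had 12 peaks, and Tet3, which oxidises methylcytosine, had 6. Dnmt3b and Tet1 had no peak, with the nearest 30.5 and 11.9 kb away.

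The neighbours of the Polycomb genes, named after their values were seen, also differed in the peaks near them. Cntnap1, which ends 391 bp from the end of Ezh1, had 3 peaks within 2 kb, 1 of them the Ezh1 peak, and its start in a peak. Cul1, 4.14 kb from the 3′ limit of Ezh2, had 1 peak, which held its start. Commd3, 787 bp upstream of Bmi1, had no peak other than that of Bmi1 within 2 kb, and H2-Ke6, 1353 bp upstream of Ring1, had 0.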
